A study of Mus musculus with 8 samples.

Results

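The 9 genes described here are Eph receptors and ephrins: the receptors Ephb6, Ephb4, Ephb2, Ephb3, Epha2 and Epha4, and the ligands Efna1, Efnb1 and Efnb2. They were taken by gene name from the 54532 genes of the count table, and Ephb6 was selected on its rise, that is chosen by its higher counts in mAb-DXd/IMQ than in saline tumors, so its change is given as a description without a test. All 9 were among the 18511 genes that passed a filter on low counts and were tested. The mouse family has 22 such genes, 14 receptors and 8 ephrins, of which 18 passed that filter.

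RNA was sequenced from 8 tumors grown under the skin of female, immunocompetent BALB/cJ mice, 6 weeks old at injection, from 4T1-FLuc cells, a mouse triple-negative breast cancer line that carries firefly luciferase. The 4 saline tumors came from mice given vehicle, which the sample titles call saline and a treatment label calls PBS. The 4 mAb-DXd/IMQ tumors came from mice given a humanized antibody to CD276 that carries both DXd, a topoisomerase I inhibitor, and IMQ, a TLR7/8 agonist, at 16 mg/kg into the tail vein every 4 days for 5 courses. Tumors were taken at the end of the study. The study reports a far smaller average tumor volume at that point with mAb-DXd/IMQ than with saline, and extensive tumor cell death in stained treated tumors. Tumor size and treatment therefore cannot be told apart in these groups. The antibody, DXd and IMQ were given as 1 conjugate, so their parts cannot be told apart in these groups, and all tumors grew from the same transplanted line. Total counts per tumor were 49398150, 45019927, 56388627 and 69582375 in saline tumors 1 to 4 and 51625237, 46196237, 42965317 and 34591912 in mAb-DXd/IMQ tumors 1 to 4 (exact permutation test, two-sided, p = 0.171). Levels are given as CPM, the count relative to the scaled total of its library, and 3 counts correspond to 0.0439 to 0.0843 CPM, a floor that covers counting error only. As a check of the tissue only, the summed CPM of 6 epithelial genes, led by Krt18, was 2320 ± 371 in saline tumors and 2610 ± 643 in treated tumors (SD, n = 4 each). Both groups are tumors of the same line, so this sum cannot check the group labels. Of the receptors that define triple-negative disease, Pgr was at 0.367 and 0.578 CPM, Esr1 at 19.1 and 15.7 CPM, and Erbb2 at 102 and 101 CPM in the respective groups.

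Eph receptors are the largest family of receptor tyrosine kinases, and their ligands, the ephrins, are themselves bound to the membrane of the neighboring cell. Contact between cells therefore sends signals in both directions, forward through the receptor and in reverse through the ephrin. A-class ephrins are held by a lipid anchor and mainly bind EphA receptors, whereas B-class ephrins cross the membrane and mainly bind EphB receptors; EphA4 binds both. The family is known for guiding axons and sorting cells at tissue boundaries, for separating arteries (ephrin-B2) from veins (EphB4), and for the abundance of EphA2 in many breast cancers. EphB6 is unusual in that its kinase domain lacks catalytic activity, and it has been studied in T cells as well as in epithelial tumors.

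Ephb6 was higher in every mAb-DXd/IMQ tumor than in any saline tumor. The gene lies at chr6:41605482-41620509 on the plus strand of GRCm38. Its level was 30.9, 18.9, 28.2 and 18.9 CPM in saline tumors 1 to 4 and 61.3, 58.2, 60.9 and 54.2 CPM in mAb-DXd/IMQ tumors 1 to 4. Saline tumors 1 and 3 were high and tumors 2 and 4 low within their group, while the 4 treated tumors were close together, with a coefficient of variation of 5.61% against 25.8% in saline. Group means were 24.2 ± 6.26 and 58.6 ± 3.29 CPM (SD, n = 4 each), a ratio of 2.42. The fitted log2 fold change was 1.28 (SE 0.17). In bulk tumor RNA, a change in the number of cells of a type and a change in RNA per cell cannot be told apart. That limit holds for this and every later level.

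The window from 250 bases before to 50 bases after the start that RefSeq gives for Ephb6 is shown because the report turns on this gene, beside the windows of Efnb1 and Efnb2, the B-class ligands whose log2 fold changes were the next largest in size among the 9 genes. Capitals mark matches on either strand to the GC box motif, spelled GGGCGG, to the motif known as CCAAT box, named by its letters, and to the TATA box motif, spelled TATAAA. For Ephb6 and Efnb1 the start in RefSeq differs from the start of the gene in the count table. The sequences are from RefSeq on GRCm38.p6, at chr6:41605261-41605560 (plus strand), chr8:8661193-8661492 (minus strand) and chrX:99135811-99136110 (plus strand).
Ephb6: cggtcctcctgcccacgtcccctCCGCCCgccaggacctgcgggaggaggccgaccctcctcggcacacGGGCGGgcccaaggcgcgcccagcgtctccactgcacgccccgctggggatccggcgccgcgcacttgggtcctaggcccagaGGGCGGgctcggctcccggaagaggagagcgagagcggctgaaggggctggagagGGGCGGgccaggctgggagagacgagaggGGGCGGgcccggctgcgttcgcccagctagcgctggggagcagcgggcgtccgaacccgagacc
Efnb2: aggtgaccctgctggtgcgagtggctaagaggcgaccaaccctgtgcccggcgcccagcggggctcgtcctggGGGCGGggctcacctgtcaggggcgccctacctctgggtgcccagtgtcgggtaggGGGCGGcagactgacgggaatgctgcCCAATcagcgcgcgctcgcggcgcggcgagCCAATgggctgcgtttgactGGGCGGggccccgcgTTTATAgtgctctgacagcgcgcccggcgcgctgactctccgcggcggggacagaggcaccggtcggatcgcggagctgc
Efnb1: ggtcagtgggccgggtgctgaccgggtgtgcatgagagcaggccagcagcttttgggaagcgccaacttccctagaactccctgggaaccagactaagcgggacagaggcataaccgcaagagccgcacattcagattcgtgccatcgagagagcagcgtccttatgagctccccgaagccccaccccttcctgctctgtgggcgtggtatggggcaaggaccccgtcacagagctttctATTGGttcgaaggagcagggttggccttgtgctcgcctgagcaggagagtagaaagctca
The Ephb6 window had 76.3% G and C, 34 CpG dinucleotides and 5 GC boxes, with no CCAAT or TATA match. Of 32851 windows of the same length, 92.3% had fewer CpG, the median window had 7, and 35.7% held a GC box. The Efnb2 window was similar in base composition, with 72.3% G and C, 35 CpG and 3 GC boxes. It also held 2 CCAAT boxes and 1 TATA box, motifs that 37.4% and 13.6% of windows held at least once. The Efnb1 window had 59.7% G and C, 14 CpG, 1 CCAAT box and no GC box. Windows were matched for all 9 genes, with 2 for Efna1. None of these 10 windows held an interferon response element (GAAANNGAA, in 8.56% of all windows), a STAT element (TTCNNNGAA, in 8.30%) or an NF-kB element (GGGANTTCC, in 1.68%), searched on both strands. A match describes the letters in the window and is not a binding site.

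**Figure D1:**
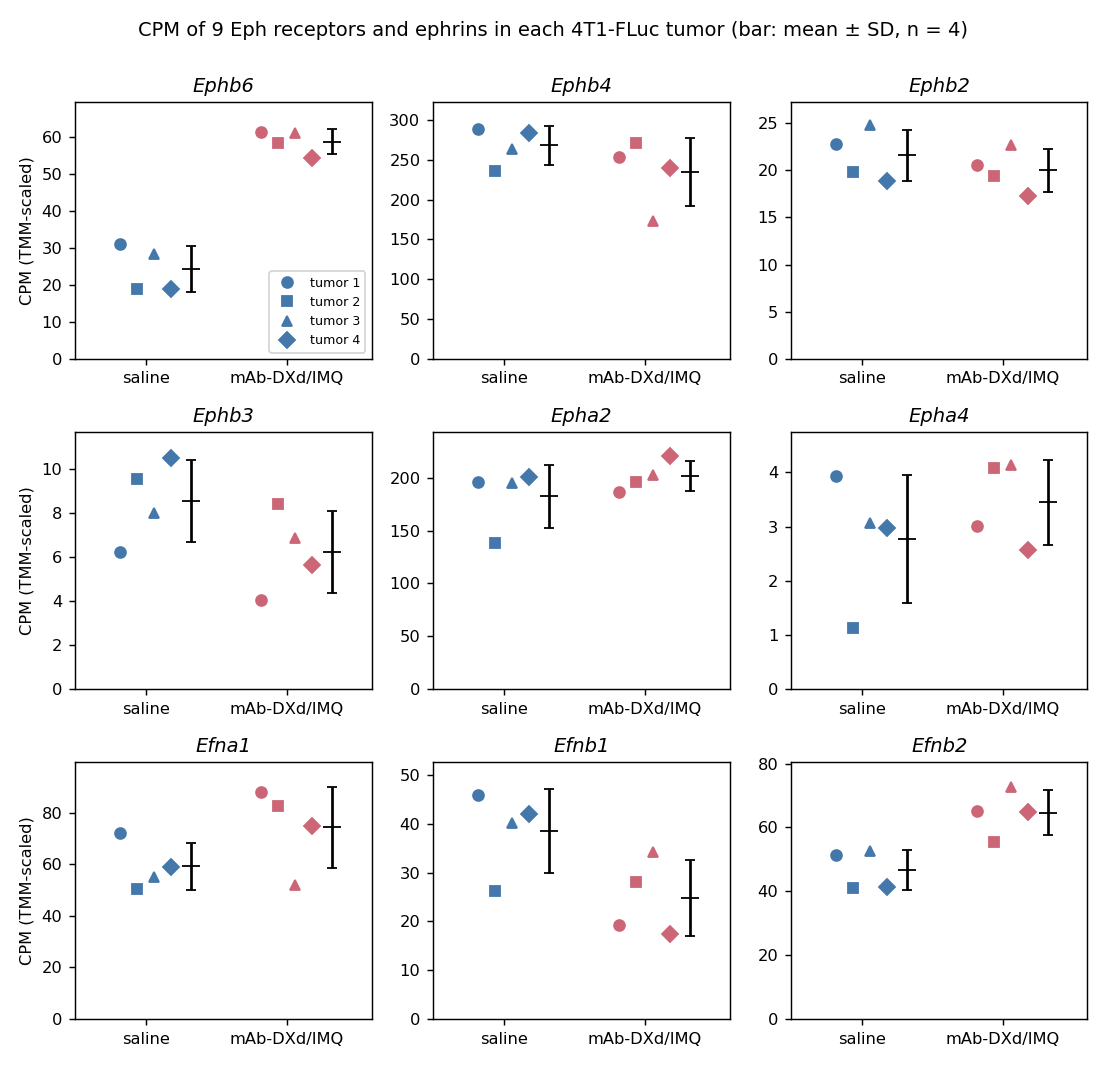
CPM of the 9 genes in each tumor, with saline in blue and mAb-DXd/IMQ in red, marker shapes for tumor numbers, and bars for mean ± SD (n = 4). Ephb6 lies at 18.9 to 30.9 CPM in saline and 54.2 to 61.3 CPM in mAb-DXd/IMQ tumors, and Efnb2 at 41.1 to 52.5 and 55.5 to 72.8 CPM, while the groups overlap for the other 7 genes.

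The other 3 EphB receptors among the 9 genes did not pass the test, and their log2 fold changes were below 0. Ephb4 (chr5:137350109-137378669, plus strand), the receptor of veins and the partner of ephrin-B2, was at 289, 236, 263 and 284 CPM in saline tumors 1 to 4 and 253, 271, 173 and 240 CPM in mAb-DXd/IMQ tumors 1 to 4. Treated tumor 3 was the lowest of all 8, and the groups overlapped. The log2 fold change of Ephb4 was -0.19 (SE 0.15; edgeR quasi-likelihood test, adjusted p = 0.508), and -0.07 without treated tumor 3. Ephb2, a receptor of intestinal crypts and axons, ranged from 18.9 to 24.8 CPM in saline and from 17.3 to 22.7 CPM in mAb-DXd/IMQ tumors (log2 fold change -0.11, SE 0.14; edgeR adjusted p = 0.704). Its value was -0.04 without saline tumor 3 or without treated tumor 4, and -0.18 without treated tumor 3. Over all tested genes the log2 fold change went with gene length (Spearman rho -0.212 across genes, which are not independent replicates), and after a correction for length (rho -0.0339) the value of Ephb2, the longest of the 9 genes, was -0.008. Ephb3, which acts beside EphB2 in those crypts, ranged from 6.24 to 10.5 CPM in saline and from 4.04 to 8.44 CPM in mAb-DXd/IMQ tumors (log2 fold change -0.46, SE 0.25; edgeR adjusted p = 0.358; -0.30 without treated tumor 1). Adjusted p-values are by the Benjamini-Hochberg method over all 18511 tested genes, and a value that misses the threshold does not show that the groups are alike.

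The EphA receptors among the 9 genes also did not pass the test. Epha2 (chr4:141301240-141329384, plus strand) was at 196, 138, 195 and 201 CPM in saline tumors 1 to 4 and 187, 196, 203 and 221 CPM in mAb-DXd/IMQ tumors 1 to 4. Saline tumor 2 stood below the other 7 tumors, which lay between 187 and 221 CPM in both groups. Its log2 fold change was 0.14 (SE 0.13; edgeR adjusted p = 0.605), and 0.03 without saline tumor 2. Epha4, the receptor that binds both ephrin classes, was the least abundant of the 9 genes, at 1.13 to 4.13 CPM over the 8 tumors. Its log2 fold change was 0.31 (SE 0.35; edgeR adjusted p = 0.679), and 0.05 without saline tumor 2, in which it was also lowest, or 0.52 without saline tumor 1.

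Among the ligands, Efnb2 and Efnb1 lay on opposite sides of 0. Efnb2 (chr8:8617434-8661242, minus strand), which encodes the ephrin-B2 of arteries, was at 51.5, 41.1, 52.5 and 41.4 CPM in saline tumors 1 to 4 and at 65.2, 55.5, 72.8 and 64.9 CPM in mAb-DXd/IMQ tumors 1 to 4. Every treated tumor was above every saline tumor. The log2 fold change was 0.47 (SE 0.13), below the limit of 0.58 set for a call, and the edgeR adjusted p was 0.0824. Efnb1 (chrX:99136130-99148991, plus strand), which encodes the ephrin-B1 of epithelial and mesenchymal boundaries, was at 45.9, 26.2, 40.2 and 42.0 CPM in saline tumors 1 to 4 and at 19.3, 28.0, 34.2 and 17.5 CPM in mAb-DXd/IMQ tumors 1 to 4. Saline tumor 2 fell among the treated tumors, whereas the other 3 saline tumors were above all 4 of them. The log2 fold change was -0.64 (SE 0.23; edgeR adjusted p = 0.166), and -0.79 without saline tumor 2 (adjusted p = 0.115). Efna1 (chr3:89271733-89281142, minus strand), which encodes the main ligand of EphA2, was at 72.0, 50.4, 55.1 and 58.9 CPM in saline tumors 1 to 4 and at 87.8, 82.5, 52.0 and 74.8 CPM in mAb-DXd/IMQ tumors 1 to 4. Treated tumor 3 lay within the saline range and the other 3 above it (log2 fold change 0.33, SE 0.17; edgeR adjusted p = 0.319).

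The thresholds that the study names are a false discovery rate below 0.05 and a log2 fold change beyond 0.58 in either direction, and 0.546% of all tested genes (101) were past both as higher and 0.519% (96) as lower in mAb-DXd/IMQ tumors. Ephb6 was selected on its rise in this comparison, so nothing is read from its place among them. None of the other 8 genes passed in edgeR, DESeq2 or limma-voom, and 2 had an unadjusted edgeR p under 0.05, beside 18.9% (3503) of all tested genes. Efnb2 was the 1 of these 8 whose groups did not overlap, beside 13.1% (2420) of all tested genes. Of the 8 log2 fold changes, 4 were above 0 and 4 below, with a median of 0.01 beside 0.02 for all tested genes; without saline tumor 2 the median of the 8 was -0.06.

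**Figure D2:**
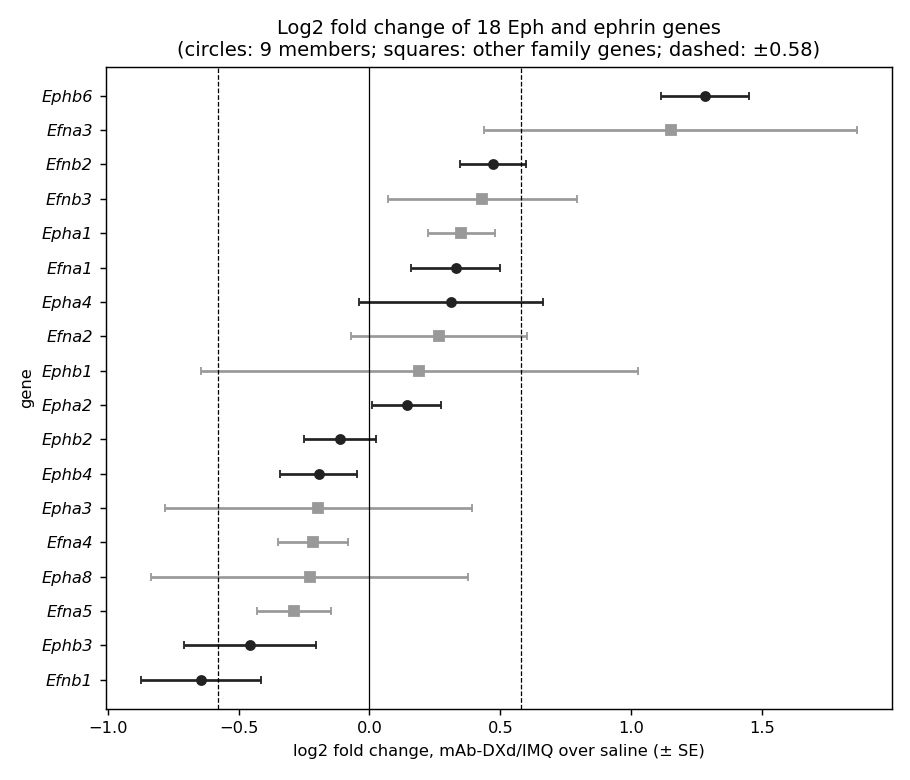
Log2 fold change (mAb-DXd/IMQ over saline) with its SE for the 18 tested Eph and ephrin genes; circles are the 9 genes described and squares the rest of the family, and dashed lines mark ±0.58. Ephb6 stands at 1.28, Efnb2 at 0.47 and Efnb1 at -0.64, and the long bar of Efna3 goes with its low counts.

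The 13 further genes of the family gave no call. Of these, 9 were tested, 5 with a log2 fold change above 0 and 4 below (median 0.19), and none passed in edgeR, DESeq2 or limma-voom, with 1 at an unadjusted edgeR p under 0.05, beside 18.9% of all tested genes. The median rested on single tumors, at -0.22 without saline tumor 1 and 0.005 without treated tumor 1. Epha1 was at 35.5 ± 5.24 CPM in saline and 45.3 ± 4.10 CPM in mAb-DXd/IMQ tumors (SD, n = 4 each; log2 fold change 0.35, SE 0.13; edgeR adjusted p = 0.175). Epha1 overlaps Zyx on the opposite strand over 1727 bases, Zyx had 505% of the counts of Epha1, and the use of strand in counting is not given, so the Epha1 level is uncertain. Efna5 was at 66.7 ± 7.80 and 54.7 ± 9.31 CPM (SD, n = 4 each; log2 fold change -0.29, SE 0.14; edgeR adjusted p = 0.301; -0.18 without treated tumor 3). Efna4 had a log2 fold change of -0.22 (SE 0.13; edgeR adjusted p = 0.413), and -0.12 without treated tumor 3. Efna2 and Efnb3 were below 6 CPM in every tumor, and Epha3, Epha8 and Ephb1 changed sign when single tumors were left out. Efna3 had 94 counts in all 8 tumors (log2 fold change 1.15, SE 0.71; edgeR adjusted p = 0.414; 1.87 without saline tumor 1). Gm15998, which overlaps Efna3 on the opposite strand, had 78.7% as many, so the Efna3 level is uncertain as well. Epha5, Epha6, Epha7 and Epha10 were below the filter, with 0, 3, 26 and 34 counts in all.

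Compared per kilobase, Ephb4, Epha2 and Efna1 were the leading transcripts of the family in both groups. In saline tumors the mean level per kilobase of gene length (RPKM) was 57.8 ± 5.18 for Ephb4, 39.1 ± 6.36 for Epha2 and 32.3 ± 5.07 for Efna1 (SD, n = 4). The lowest Ephb4 value was above the highest Epha2 value, whereas Epha2 and Efna1 overlapped. A middle group followed, led by Efna5 at 16.5 ± 1.93 and Efna4 at 14.4 ± 0.810 RPKM, and then Efnb1 (11.2 ± 2.49), Epha1 (9.04 ± 1.33), Efnb2 (6.80 ± 0.907) and Ephb6 (6.42 ± 1.66). Each neighbor in that order overlapped with the next, and all lay below Efna1 and above Ephb2. Ephb2 (1.71 ± 0.216), Ephb3 (1.29 ± 0.280) and Epha4 (0.344 ± 0.146) were the low members. In mAb-DXd/IMQ tumors the first 3 places by mean were the same, with Ephb4 at 50.5 ± 9.27, Epha2 at 43.1 ± 3.10 and Efna1 at 40.6 ± 8.62 RPKM (SD, n = 4). There Ephb4 and Epha2 overlapped, and in treated tumor 3 Ephb4 (37.2) was below Epha2 (43.4). By mean, Ephb6, selected on its rise, moved from rank 9 to rank 4 of the 22 genes, at 15.5 ± 0.871 RPKM. Efnb1 moved from rank 6 to rank 9, at 7.16 ± 2.25 RPKM. Ephb6 overlapped with Efna5, the next gene in the treated order. Efna5 was above it in treated tumors 2 (15.5 against 15.4) and 4 (14.9 against 14.4). Levels per kilobase depend on the gene length used, and with the longest annotated transcript Efnb2 was at 9.73 instead of 6.80 RPKM in saline tumors.

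**Figure D3:**
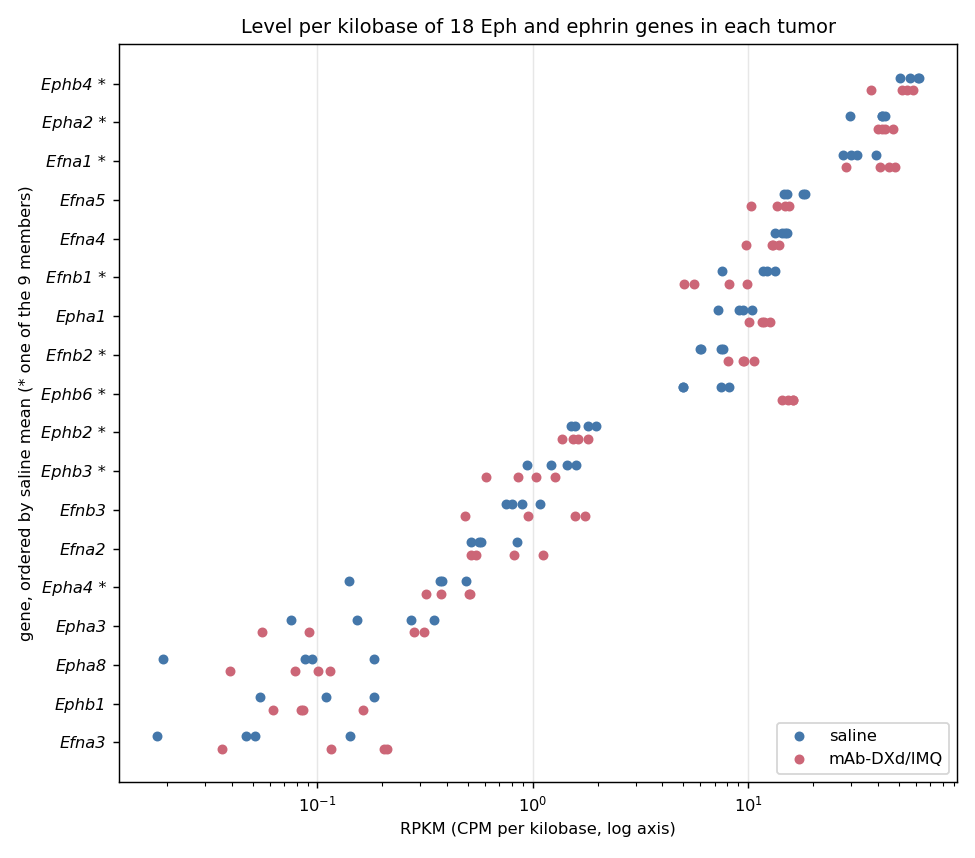
Level per kilobase (RPKM, log axis) of the 18 tested family genes in each saline (blue) and mAb-DXd/IMQ (red) tumor, ordered by the saline mean; stars mark the 9 genes described, and a value of 0 for Ephb1 in a saline tumor is not drawn. Ephb6, selected on its rise, moves from 6.42 to 15.5 RPKM on average, past the means of Efna5, Efna4, Efnb1, Epha1 and Efnb2. In mAb-DXd/IMQ tumors it overlaps with Efna5.

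Summed per kilobase, the receptor and ligand classes differed between groups by less than the SD of the saline tumors. EphB receptors summed to 67.3 ± 5.97 RPKM in saline and 68.7 ± 8.95 RPKM in mAb-DXd/IMQ tumors, and EphA receptors to 48.8 ± 7.81 and 55.4 ± 3.36 RPKM (SD, n = 4 each). Ephb6 made up 11.2, 8.48, 11.1 and 7.22% of the EphB sum in saline tumors 1 to 4 and 22.2, 20.1, 28.7 and 21% in mAb-DXd/IMQ tumors 1 to 4. Ephb4 made up 85.9 ± 1.80% of it in saline and 73.1 ± 4.69% in mAb-DXd/IMQ tumors (SD, n = 4 each). These shares restate the Ephb6 values on which the gene was selected, and are a description without a test. Treated tumor 3, lowest in Ephb4, had the highest Ephb6 share, which follows from arithmetic, since Ephb4 was most of the sum. Its Ephb6 level was 16.1 RPKM, within the treated range of 14.4 to 16.2 RPKM.

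Ephrin-B ligands summed to 18.9 ± 3.15 RPKM in saline and 17.8 ± 3.06 RPKM in mAb-DXd/IMQ tumors, and ephrin-A ligands to 63.9 ± 6.80 and 67.4 ± 12.4 RPKM (SD, n = 4 each). The ratio of Efnb2 to Efnb1 per kilobase was 0.565, 0.788, 0.656 and 0.496 in saline tumors 1 to 4 and 1.70, 0.998, 1.07 and 1.87 in mAb-DXd/IMQ tumors 1 to 4. Efnb1 was the more abundant in all 4 saline tumors and Efnb2 in 3 of 4 treated tumors, with treated tumor 2 near 1. That order depends on the gene length, since with the longest annotated transcripts the ratio was 0.670 to 1.06 in saline and 1.35 to 2.53 in mAb-DXd/IMQ tumors, again without overlap. This ratio was formed after the values of both genes were seen, so it is a description without a test. Saline tumor 2, low in Efnb1, had the highest saline ratio and still lay below the treated tumors.

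**Figure D4:**
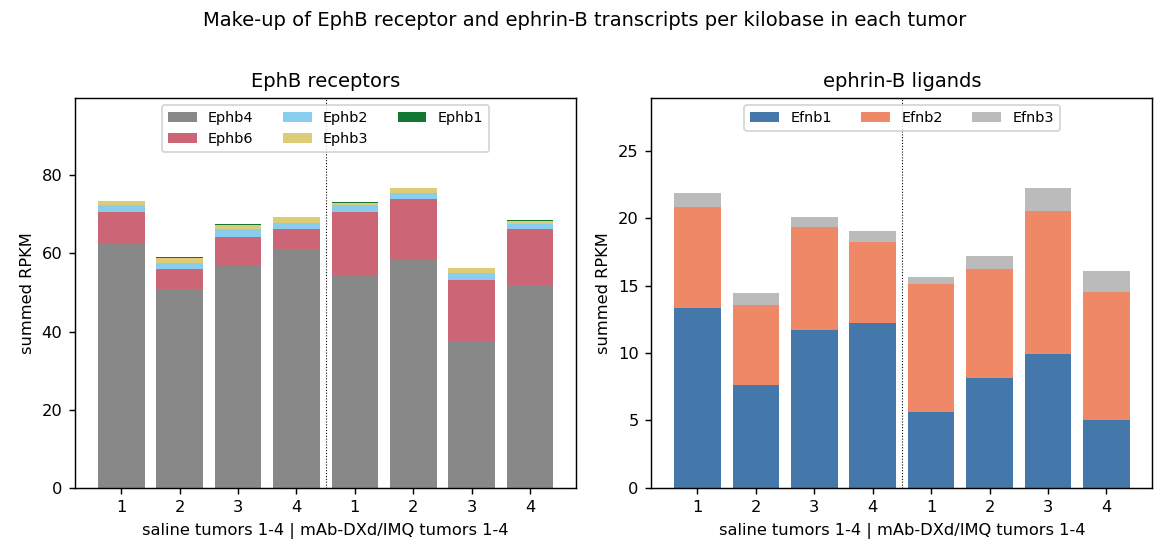
Stacked level per kilobase (summed RPKM) of the EphB receptors (left) and the ephrin-B ligands (right) in saline tumors 1 to 4 and mAb-DXd/IMQ tumors 1 to 4. Ephb6 takes 7.22 to 11.2% of the EphB bar in saline and 20.1 to 28.7% in mAb-DXd/IMQ tumors, while the ratio of Efnb2 to Efnb1 goes from 0.496 to 0.788 in saline to 0.998 to 1.87 in mAb-DXd/IMQ tumors.

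Genes that carry signals from Eph receptors and ephrins gave no call in edgeR with the filter on low counts. Of 63 listed partners, 62 were tested, 16 with a log2 fold change above 0 and 46 below, with a median of -0.13 beside 0.02 for all tested genes. Of all tested genes, 52.6% were above 0. Without treated tumor 4 the median of the partners was -0.05. It was -0.10 with the gene length correction and -0.08 with upper quartile factors, beside -0.01 and 0.07 for all tested genes. Unadjusted edgeR p-values were under 0.05 for 11 of the 62, no more than the 18.9% of all tested genes. In the other tools, limma-voom called none, and DESeq2 called Tiam1 and Vav3 as lower, beside 349 lower calls among the 18511 tested genes. With every gene that had a count, edgeR also called Tiam1 and Vav3 as lower, beside 191 lower calls among 31459 genes. Groups did not overlap for 8 of the 62, 2 higher and 6 lower, beside 13.1% of all tested genes. The balance was 0 above and 9 below among GTPases and their effectors, 1 and 11 among kinases and phosphatases, 4 and 13 among GTPase regulators, 8 and 10 among adaptors and scaffolds, and 3 and 3 among proteases that shed ephrins or receptors. These small counts moved with single tumors. Over the 8 fits without a tumor the number above 0 was 0 to 1 among GTPases and their effectors (1 without treated tumor 3), 1 to 3 among kinases and phosphatases (3 without treated tumor 3), 1 to 7 among GTPase regulators (1 without treated tumor 3 and 7 without treated tumor 1), 7 to 9 among adaptors and scaffolds, and 1 to 3 among proteases (1 without saline tumor 3 or treated tumor 2). The lowest adjusted p-values among genes lower in mAb-DXd/IMQ tumors belonged to 3 GTPase regulators. Tiam1, an exchange factor for Rac recruited by ephrin-B and EphA2, was at 78.2 ± 9.25 CPM in saline and 48.2 ± 10.7 CPM in mAb-DXd/IMQ tumors (SD, n = 4 each; log2 fold change -0.70, SE 0.16; edgeR adjusted p = 0.0595). Vav3, an exchange factor that binds activated EphA2, was at 108 ± 13.8 and 69.8 ± 14.5 CPM (SD, n = 4 each; log2 fold change -0.63, SE 0.16; edgeR adjusted p = 0.0702). Sipa1l1, a GTPase-activating protein for Rap that binds EphA4, was at 84.1 ± 9.86 and 63.4 ± 3.75 CPM (SD, n = 4 each; log2 fold change -0.41, SE 0.11; edgeR adjusted p = 0.0826). Each of the 3 was lower in all treated tumors than in any saline tumor. In the other direction, Arhgef15, the exchange factor ephexin-5 that acts with EphB2, was at 17.2 ± 0.923 and 21.5 ± 2.21 CPM (SD, n = 4 each; log2 fold change 0.33, SE 0.12; edgeR adjusted p = 0.184). The adaptors Grip1 (1.23, SE 0.62; edgeR adjusted p = 0.316, at a mean under 1 CPM) and Grb7 (0.35, SE 0.21; edgeR adjusted p = 0.401; 0.21 without saline tumor 2 and 0.22 without treated tumor 2) had the next lowest adjusted p-values among those with a log2 fold change above 0.

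Of 14 markers of T cells, in which EphB6 is known, 3 passed both thresholds as lower in mAb-DXd/IMQ tumors, while Klrg1, from a list of thymocyte and innate lymphoid genes, passed as higher. The summed CPM of the 14 genes, led by Cd8a, was 103, 151, 148 and 142 in saline tumors 1 to 4 and 91.8, 82.4, 50.8 and 69.4 in mAb-DXd/IMQ tumors 1 to 4. Every treated tumor was below every saline tumor in this sum, which was not tested. The same held in 9 of the 14 genes, while the groups overlapped in 5. Over all tested genes, 13.1% had groups that did not overlap, in either direction. All 14 log2 fold changes were below 0 (13 of 14 with upper quartile factors, where Trbc1 was at 0.000656, and without saline tumor 3 or 4 or treated tumor 3 or 4), and Cd4 (-1.91, SE 0.25), Cd8a (-1.22, SE 0.17) and Cd2 (-1.44, SE 0.30) fell past both thresholds, with edgeR adjusted p-values of 0.0201, 0.0201 and 0.0458, beside 0.519% of all tested genes past both as lower. DESeq2 called 10 and limma-voom 4 of the 14 lower, beside 349 and 88 of the 18511 tested genes. None of the 14 passed in edgeR with a block for tumor number, without saline tumor 3, without saline tumor 4 or without treated tumor 4. None of the 14 genes was at 0. The 6 thymocyte and innate lymphoid genes, led by Gata3, summed to 102 ± 7.97 CPM in saline and 94.4 ± 6.83 CPM in mAb-DXd/IMQ tumors (SD, n = 4 each). Of these, Rag1 was at 0 in all 8 tumors, and Dntt and Ptcra were below the filter. Klrg1, a receptor of effector T cells and natural killer cells, was at 0.892, 0.677, 0.752 and 0.848 CPM in saline tumors 1 to 4 and 2.78, 1.71, 3.76 and 2.61 CPM in mAb-DXd/IMQ tumors 1 to 4. It passed both thresholds (log2 fold change 1.77, SE 0.305; edgeR adjusted p = 0.0277), also in DESeq2 and limma-voom, but not in 5 of 8 fits without a single tumor (adjusted p up to 0.101, without saline tumor 4). Il7r (log2 fold change -0.33, SE 0.20; edgeR adjusted p = 0.406) and Gata3 (-0.11, SE 0.10; 0.618) did not pass. Saline tumor 1 had the highest Ephb6 and the lowest T-cell sum of its group. The part of T cells in the level of Ephb6 was not tested.

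Markers of endothelium, where ephrin-B2 and EphB4 act, were also followed. The summed CPM of 9 endothelial genes, led by Eng, was 230, 393, 320 and 318 in saline tumors 1 to 4 and 419, 392, 459 and 376 in mAb-DXd/IMQ tumors 1 to 4. Saline tumor 2 lay within the treated range and the other 3 below it. All 9 log2 fold changes were above 0 (median 0.42), and none passed in edgeR or limma-voom. Of the 9, 2 had an unadjusted edgeR p under 0.05 (beside 18.9% of all tested genes). DESeq2 called Emcn as higher, beside 438 higher calls among the 18511 tested genes. Without saline tumor 1 the median was 0.19, with 8 of 9 above 0, and without treated tumor 4 it was also 8 of 9. The 4 arterial genes Gja5, Hey1, Dll4 and Sox17, none at 0, summed to 10.4, 24.7, 16.6 and 15.4 CPM in saline and 30.8, 23.1, 29.0 and 25.0 CPM in mAb-DXd/IMQ tumors, with all 4 log2 fold changes above 0 (3 of 4 without treated tumor 3). Hey1, a target of Notch in arteries, passed (log2 fold change 1.52, SE 0.31; edgeR adjusted p = 0.0458), but not when any single tumor was left out (adjusted p 0.0641 to 0.153). The 2 venous genes Nr2f2 and Ackr1 summed to 13.7 ± 1.66 and 12.7 ± 2.88 CPM (SD, n = 4 each). The 3 lymphatic genes, led by Pdpn and none at 0, summed to 24.8 ± 4.18 and 25.3 ± 3.94 CPM (SD, n = 4 each). Prox1 (log2 fold change -1.47, SE 0.60; edgeR adjusted p = 0.217; -0.69 without saline tumor 3) and Lyve1 (-1.07, SE 0.32; 0.109) were below 0 and Pdpn (0.21) above. None of the 3 passed in edgeR or limma-voom, and 2 had an unadjusted edgeR p under 0.05, beside 18.9% of all tested genes. DESeq2 called Lyve1 as lower, beside 349 lower calls among the 18511 tested genes. The 4 genes of pericytes and smooth muscle, Pdgfrb, Rgs5, Acta2 and Myh11, led by Acta2 and none at 0, summed to 106, 149, 183 and 165 CPM in saline tumors 1 to 4 and 260, 161, 300 and 133 CPM in mAb-DXd/IMQ tumors 1 to 4, so the groups overlapped. All 4 log2 fold changes were above 0 (median 0.62), and none passed in edgeR, DESeq2 or limma-voom or had an unadjusted edgeR p under 0.05. The median was 0.33, with 3 of 4 above 0, without treated tumor 3, and 0.38 without treated tumor 1. Within the saline group, tumor 2 had the highest endothelial and arterial sums and the lowest Efnb2 and Ephb4. The part of vessels in the levels of Efnb2 and Ephb4 was not tested.

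Saline tumor 2 was the lowest saline tumor for 6 of the 9 genes (Ephb4, Epha2, Epha4, Efna1, Efnb1 and Efnb2) and the highest for none. Its epithelial sum was 1830 CPM, beside 2240 to 2640 CPM in the other saline tumors. Its macrophage sum (Adgre1, Csf1r and Cd68) was 707 CPM, beside 179 to 438 CPM in the others. Between the groups the macrophage sum was 423 ± 219 CPM in saline and 284 ± 58.6 CPM in mAb-DXd/IMQ tumors (SD, n = 4 each), and treated tumors ranged from 215 to 348 CPM. All 3 macrophage genes were below 0 (median -0.65), as the T-cell markers were, and without saline tumor 2 the median was -0.31, with 2 of 3 below 0. The groups overlapped for all 3 and for Ptprc, the marker of all leukocytes (log2 fold change -0.16, SE 0.17; edgeR adjusted p = 0.676; -0.35 without treated tumor 3 and -0.08 without treated tumor 4). No marker of macrophages, leukocytes, epidermis, fibroblasts, nerve, skeletal muscle or adipocytes passed in edgeR, DESeq2 or limma-voom. The balance of directions rested on single tumors for epidermis (6 of 6 above 0, but 1 of 6 without treated tumor 2), fibroblasts (2 of 6, but 0 without saline tumor 1 and 5 without saline tumor 4) and skeletal muscle (1 of 4, but 3 without saline tumor 1 and 0 without saline tumor 2). The part of tumor make-up in these levels was not tested.

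The gene next to Ephb6 was also higher in mAb-DXd/IMQ tumors. Trpv6, a calcium channel of epithelia, lies on the opposite strand with its 3' end 115 bases beyond the 3' end of Ephb6, so that the 3' ends face each other. Its level was 0.750, 0.406, 0.734 and 0.293 CPM in saline tumors 1 to 4 and 1.55, 2.27, 4.85 and 2.70 CPM in mAb-DXd/IMQ tumors 1 to 4. The groups did not overlap, and Trpv6 passed both thresholds (log2 fold change 2.38, SE 0.44; edgeR adjusted p = 0.0321). The call was lost in 6 of 8 fits without a single tumor, with adjusted p-values up to 0.118 (without saline tumor 4). Trpv6 had 1.55 to 2.60% as many counts as Ephb6 in saline and 2.52 to 7.96% in mAb-DXd/IMQ tumors. Reads that run past the end of either gene cannot be told apart from reads of the other if strand was not used in counting. On the other side, across a gap of 57.1 kb, lie the T-cell receptor genes Trbc2 and Trbc1, near-identical copies whose counts are uncertain. Trbc2 was at 6.96 ± 0.753 and 4.17 ± 0.845 CPM (SD, n = 4 each; log2 fold change -0.74, SE 0.21; edgeR adjusted p = 0.0957), and Trbc1 at 10.8 ± 3.5 and 10.5 ± 2.83 CPM (SD, n = 4 each; log2 fold change -0.04, SE 0.28; edgeR adjusted p = 0.959). Beyond Trbc1, the next tested gene was Trbj1-5 (log2 fold change 0.07; edgeR adjusted p = 0.973). Beyond Trpv6, the next tested genes were Gstk1, 625 kb away (log2 fold change 0.43; edgeR adjusted p = 0.428), and Tmem139 (log2 fold change 0.37; edgeR adjusted p = 0.635). Epha1, on the same chromosome, lies 738 kb from Ephb6.

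**Figure D5:**
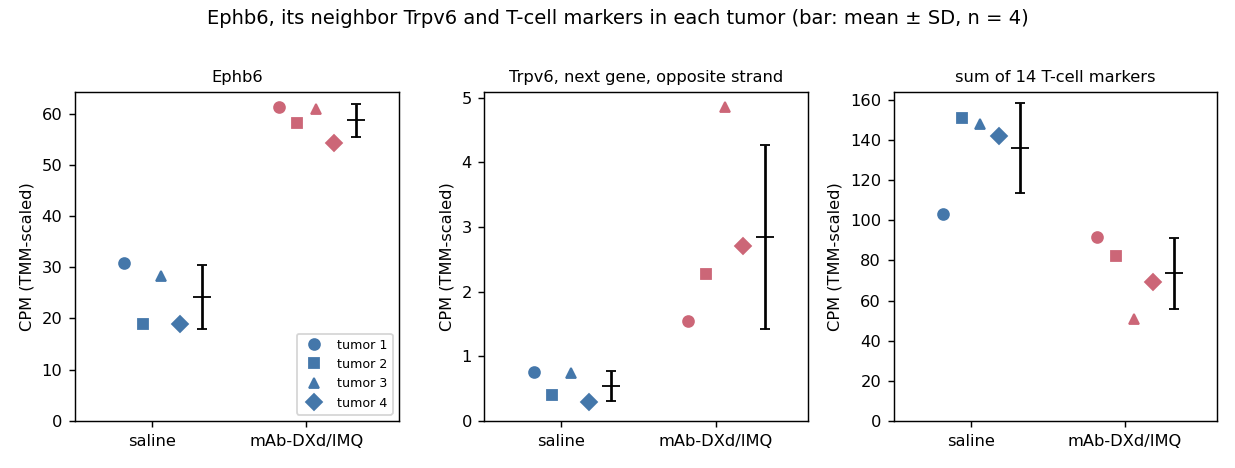
CPM of Ephb6, of its neighbor Trpv6 and of the sum of 14 T-cell markers in each saline (blue) and mAb-DXd/IMQ (red) tumor, with marker shapes for tumor numbers and bars for mean ± SD (n = 4). Ephb6 and Trpv6 lie higher in all 4 treated tumors, and the T-cell sum lies lower, at 50.8 to 91.8 against 103 to 151 CPM.

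Likeness to Ephb6 was measured over the 8 tumors as the mean absolute difference in log2 CPM after each gene was centered on its mean, among 14645 genes with a mean of at least 1 CPM. The median gene differed from Ephb6 by 0.68. The closest were 2010204K13Rik (0.13), Klhl30 (0.16), Mkx (0.16), Car2 (0.16), which encodes carbonic anhydrase, and Gm15433 (0.18). Car2, for example, was at 3.14, 2.32, 2.15 and 2.08 CPM in saline tumors 1 to 4 and 5.73, 6.85, 5.77 and 5.76 CPM in mAb-DXd/IMQ tumors 1 to 4. The closest gene of the family was Efnb2, at rank 569 with a difference of 0.42. This measure is led by the difference between groups that selected Ephb6.

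After centering within each group, which removes that difference, the median gene differed from Ephb6 by 0.27. The closest were Iigp1 (0.05) and Tgtp2 (0.05), interferon-inducible GTPases, and the kinases Wee1 (0.05), Nek2 (0.06) and Mastl (0.06). Wee1 was at 46.8, 28.6, 42.2 and 31.9 CPM in saline tumors 1 to 4 and 42.0, 36.5, 37.5 and 34.8 CPM in mAb-DXd/IMQ tumors 1 to 4. Like Ephb6, it was high in saline tumors 1 and 3 and low in tumors 2 and 4, and the treated tumors were closer together. The nearest family genes were Ephb2 at rank 169 (0.12), Epha1 at rank 370 (0.14) and Efnb2 at rank 385 (0.14). With 4 tumors in each group and so many genes compared, close values arise among unrelated genes as well.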

How the data were processed

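Gene counts from 8 tumors were deposited by the authors as whole numbers that were not normalized. Per the labels, messenger RNA was selected with poly-T beads and sequenced by Illumina short reads. The submitters' processing notes name HISAT2, HISAT, TopHat2 and mm39; however, 53585 of 54495 genes (98.3%) had the coordinates of GENCODE M21, so coordinates are given on GRCm38. The counting program and its use of strand are not given in the sources used here.

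Counts were filtered with filterByExpr, scaled by TMM and tested with the quasi-likelihood test of edgeR 4.0.16 (R 4.3.3), with the limits that the study names, a false discovery rate below 0.05 and a log2 fold change beyond 0.58 in either direction. SE was taken as the log2 fold change over the square root of F. RPKM is CPM per kilobase of the gene length in the table. Promoter windows came from RefSeq (GRCm38.p6). Alternatives were RLE and upper quartile scaling, other filters, DESeq2 1.42.0, limma-voom 3.58.1, a block for tumor number, a gene length correction, TPM-like levels, a fit without each tumor and, added after seeing the data, levels by the longest transcript.

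Named genes were the 9 genes, the 13 others of the family, partner genes past both thresholds or otherwise the 3 with the lowest adjusted p in each direction, the 5 genes most like Ephb6 over 8 tumors and within groups, the 3 nearest tested genes on each side of Ephb6, overlapping genes, and cell type markers. Genes and lists were chosen with earlier results of these data known. The labels number tumors within a group and do not name animals, so p-values measure the spread between these tumors. Protein sequences were not used here.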

Additional observations from a re-analysis of the deposited data

Results flagged for a closer look

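Among 68 groups of 4 values checked, 2 held a value that stood apart, where chance gives about 1 in 20, or 3.4. Epha2 in saline tumor 2 was at 138 CPM beside 195 to 201 CPM in the other saline tumors, and that gap was 0.904 of the range of the group. The leukocyte marker Ptprc in mAb-DXd/IMQ tumor 3 was at 193 CPM beside 119 to 125 CPM in the other treated tumors, a gap of 0.919 of the range.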

How the results depend on the processing

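Ephb6 was selected on its rise in these 8 tumors. Its log2 fold change over the 16 alternatives (1.17 to 1.41) therefore describes the estimate and is no sign of stability. It was 1.18 without saline tumor 4 and 1.32 without mAb-DXd/IMQ tumor 4, and no call is read from these fits. The other 8 genes kept their direction in 16 of 16 and passed both thresholds in none, with adjusted p-values of 0.0255 (DESeq2) to 0.231 for Efnb2 and 0.0777 to 0.345 for Efnb1. The count of genes past both thresholds, 197, was 787 with DESeq2, 358 with every gene that had a count and 122 with the gene length correction. Leaving out single tumors gave 10 to 203: 10 without saline tumor 3, 11 without saline tumor 4, 111 without saline tumor 2, and 76, 88 and 12 without mAb-DXd/IMQ tumors 2, 3 and 4. Upper quartile factors gave 145 higher and 73 lower in place of 101 and 96. The replicate block gave 14; tumors with the same number did not deviate together (correlations -0.17, -0.05, 0.08 and -0.07), and 1 of 4 saline tumors correlated best with its own number, so the numbers do not pair the tumors.

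Directions turned for genes with few counts: Epha3 (-0.572 to 0.147 without single tumors; 0.147 without saline tumor 3, 0.0305 and 0.11 without mAb-DXd/IMQ tumors 2 and 4), Epha8 (-0.559 to 0.302; 0.302 without saline tumor 4, 0.00513 without mAb-DXd/IMQ tumor 1) and Ephb1 (-0.222 to 0.835; -0.222 and -0.164 without tumor 1 of either group). Trbc1, near 0 (-0.241 to 0.115 without single tumors), turned with upper quartile factors (0.000656) and without saline tumors 3 and 4 (0.0467, 0.115) or mAb-DXd/IMQ tumors 3 and 4 (0.104, 0.0279). Cd4 and Cd8a lost their calls under the block and without saline tumors 3 or 4 or mAb-DXd/IMQ tumor 4 (adjusted p up to 0.0846), and Cd2 under the block and without any single tumor (up to 0.155). Hey1 was also lost with limma-voom (0.0522), the gene length correction (0.069) and the block (0.128), and Trpv6 with the block (0.0874). Klrg1 was lost under the block (0.0892) and without saline tumors 2, 3 or 4 or mAb-DXd/IMQ tumors 3 or 4 (0.0579 to 0.101). Tiam1 and Vav3 passed with DESeq2 and with every gene that had a count. The cause was not tested. Ranks by level per kilobase in saline tumors were the same with TPM-like levels; those by the longest transcript, added after seeing the data, were also the same for the 9 genes.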
